A study of Homo sapiens with 12 samples.

Results

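The genes described here are 9 genes of the TGF-beta, activin and BMP pathways, chosen by symbol among 24559 gene symbols of the deposited table. They are the ligand genes TGFB1, TGFB2, INHBA, INHBB and BMP4, the receptor gene TGFBR2, the extracellular antagonist FST, the intracellular inhibitor SMAD7 and the target gene ID1. The symbols were chosen with earlier results of these data known. All 9 have rows in the table, and all 9 passed the filter on low counts over the 12 libraries, although not every gene was detected in every group.

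Ligands of this family are secreted dimers that bring type II and type I receptor kinases together at the cell surface. The activated type I receptor phosphorylates SMAD proteins. TGF-beta and activin receptors act mainly through SMAD2 and SMAD3, and BMP receptors mainly through SMAD1, SMAD5 and SMAD9, each set joined by SMAD4 in the nucleus. In breast cancer cells the TGF-beta branch is known for growth arrest in early disease and for invasion and mesenchymal traits in late disease.

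Polysome-associated RNA, the RNA recovered from the sucrose-gradient fractions that hold several ribosomes per mRNA, was sequenced from 3 established triple-negative breast cancer lines, MDA-MB-231, SUM159 and BT549. The 12 libraries form 6 groups of 2. MDA-MB-231 and SUM159 each have a control (EV) and a knockdown (KD) group, and BT549 has a control (EV) and an overexpression (OE) group. KD cells carried a lentiviral shRNA against TRMT112, a cofactor of RNA and protein methyltransferases, and were selected with puromycin. Their control is labelled EV, while the study's methods describe a non-silencing shRNA vector. OE cells carried a TRMT112 expression clone, and their EV control carried the matching empty vector, both selected with G418. All cells were treated with cycloheximide shortly before lysis, which holds ribosomes on the mRNA, and the labels give no other treatment. The lines grew in different media, those of SUM159 with insulin and hydrocortisone. Whether the cells were single clones, and whether the libraries of a group came from separate cultures, is not stated, so p-values measure the spread between these libraries, which may be technical. No libraries of total RNA were analysed here, so a change in ribosome loading and a change in mRNA amount cannot be told apart.

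Library totals lay between 22954226 and 27434677 expected counts, and libraries of one group differed by a median of 0.08 to 0.10 on the log2 scale per gene. TRMT112 fell in MDA-MB-231 KD from 169 to 72.1 CPM (counts scaled to a common library size with TMM factors), fell in SUM159 KD from 270 to 159 CPM and rose in BT549 OE from 129 to 180.0 CPM, in the direction of the labels. Of the receptors that define triple-negative disease, ESR1 had no row, PGR was at most 0.28 CPM in any group mean, and ERBB2 lay between 59.1 and 141 CPM. The mesenchymal gene VIM was between 717 and 1983 CPM in the group means. The keratins KRT8 and KRT18 were high in MDA-MB-231 and SUM159 and at most 0.74 CPM in any BT549 library. The 10 fibroblast and mural markers summed to between 295 and 299 CPM in BT549 EV and to between 3922 and 4019 CPM in OE. Of them, 7 were called higher and 0 lower, at an adjusted p under 0.05 in the test given below. In that comparison 35.6% of all genes tested were called higher and 35.0% lower. LUM exceeded 3 counts only in BT549 OE and passed the filter on low counts through that group, so it could only be called higher. COL1A1 rose from 84.5 to 2352 CPM, COL3A1 from 1.01 to 545 CPM and POSTN from 0.41 to 203 CPM, while DCN and LUM were at 0 in EV and at 7.78 and 3.23 CPM in OE, and PDGFRB was at 0.30 and 0.52 CPM. The 9 epithelial markers summed to between 60.4 and 62.8 CPM in BT549 EV and to between 8.38 and 9.36 CPM in OE, and all 5 mesenchymal markers, VIM among them, were called lower in OE. These lists moved with every BT549 result below, and their part in those results was not tested. The endothelial and the leukocyte lists, of 5 markers each with rows for 2 and 3, each summed to at most 4.62 CPM in any library. Markers without a row cannot be read in MDA-MB-231 and SUM159.

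Sequences upstream of the starts that the results turn on are shown first, from GRCh38 with the transcript starts of GENCODE 44, each 250 bases long and read 5′ to 3′ on the strand of the gene. Capitals mark CG dinucleotides. BMP4 is shown for its distal start (chr14:53956826-53957075, minus strand) and its proximal start (chr14:53953456-53953705, minus strand), because the lines differed in which of these starts held the counts. INHBB is shown (chr2:120345886-120346135, plus strand) because it was the member with the widest range between groups. None of these windows overlaps an annotated exon of its own gene.
BMP4 distal: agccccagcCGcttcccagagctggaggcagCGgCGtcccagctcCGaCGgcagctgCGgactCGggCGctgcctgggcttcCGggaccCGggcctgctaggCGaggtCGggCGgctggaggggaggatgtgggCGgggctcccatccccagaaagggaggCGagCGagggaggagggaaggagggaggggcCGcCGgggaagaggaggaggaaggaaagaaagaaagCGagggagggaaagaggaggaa
BMP4 proximal: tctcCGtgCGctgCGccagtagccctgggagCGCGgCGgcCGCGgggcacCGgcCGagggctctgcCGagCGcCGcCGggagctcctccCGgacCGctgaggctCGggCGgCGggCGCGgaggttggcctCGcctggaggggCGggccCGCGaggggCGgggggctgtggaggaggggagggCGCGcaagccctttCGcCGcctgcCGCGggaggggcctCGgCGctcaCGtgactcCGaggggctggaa
INHBB: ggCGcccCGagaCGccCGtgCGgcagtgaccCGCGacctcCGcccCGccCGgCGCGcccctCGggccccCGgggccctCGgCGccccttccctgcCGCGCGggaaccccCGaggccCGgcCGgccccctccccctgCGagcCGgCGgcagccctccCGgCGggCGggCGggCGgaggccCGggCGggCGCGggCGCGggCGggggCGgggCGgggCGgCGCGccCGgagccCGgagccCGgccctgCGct

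The INHBB window held 46 CG dinucleotides, a number reached by 0.41% of 35116 RefSeq promoter windows of the same length (GRCh38.p14). The proximal BMP4 window held 36, reached by 4.85% of them, and the distal window held 19, reached by 34.6%. The median over all windows was 11. The letters GGCGCC, which occur in BMP response elements, matched 2 times in the INHBB window and 0 times in both BMP4 windows, against at least 1 match in 16.4% of all windows. The SMAD-binding letters CAGAC (both strands) and the palindrome GTCTAGAC matched in none of the 3 windows, against 38.0% and 0.18% of all windows. These are descriptions of the letters only.

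Within each group the 9 genes spanned a wide range per transcript length (TPM, which corrects for transcript length and library size). TGFB1 was highest in MDA-MB-231 EV, at 120 ± 2.68 TPM (SD, n = 2), and in SUM159 EV, at 254 ± 2.13 TPM, where it overlapped ID1 at 252 ± 3.48 TPM. ID1 was highest in BT549 EV, at 564 ± 7.23 TPM, followed by TGFB1 at 68.5 ± 0.14 TPM. In BT549 OE, INHBB stood second, at 147 ± 0.31 TPM, below ID1 at 528 ± 28.4 TPM and above TGFB1 at 31.2 ± 1.22 TPM. INHBA was at or below 2.19 TPM in every group mean.

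**Figure D1:**
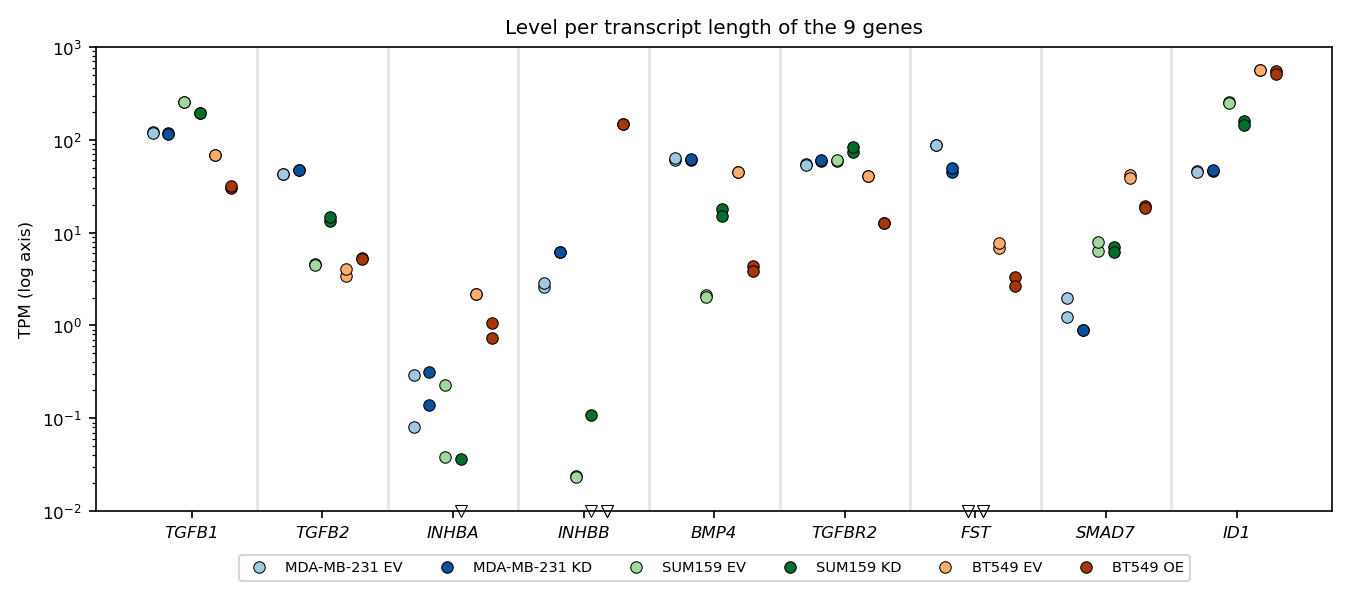
Level per transcript length (TPM, log axis) of the 9 genes in each of the 12 libraries, coloured by group; open triangles at the bottom are libraries with 0 counts. INHBB ranges from 0 in BT549 EV to 147 TPM in BT549 OE, while TGFBR2 stays between 12.6 and 82.9 TPM.

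By edgeR's quasi-likelihood test over 16538 genes, at an adjusted p (Benjamini-Hochberg) under 0.05, 3 of the 9 members were called higher and 1 lower in MDA-MB-231 KD, where 21.2% of all genes tested were called higher and 16.5% lower. In SUM159 KD, 3 members were called higher and 3 lower, against 28.6% and 31.4% of all genes. The 3 lower include INHBA, which held at most 6 counts in any SUM159 library and whose call some alternatives lost. In BT549 OE, 2 members were called higher and 6 lower, against 35.6% and 35.0% of all genes. With such a background, the counts of called members in MDA-MB-231 KD and SUM159 KD lie near those of all genes. The median log2 fold change was -1.11 over the 8 members with a fitted fold in BT549 OE, beside 0.02 over all genes. It was 0.05 in MDA-MB-231 KD over 9 members and 0.32 in SUM159 KD over 6 members, beside 0 over all genes in both. Each comparison changes TRMT112 in one line only, so lines and directions of the change cannot be told apart between knockdown and overexpression.

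**Figure D2:**
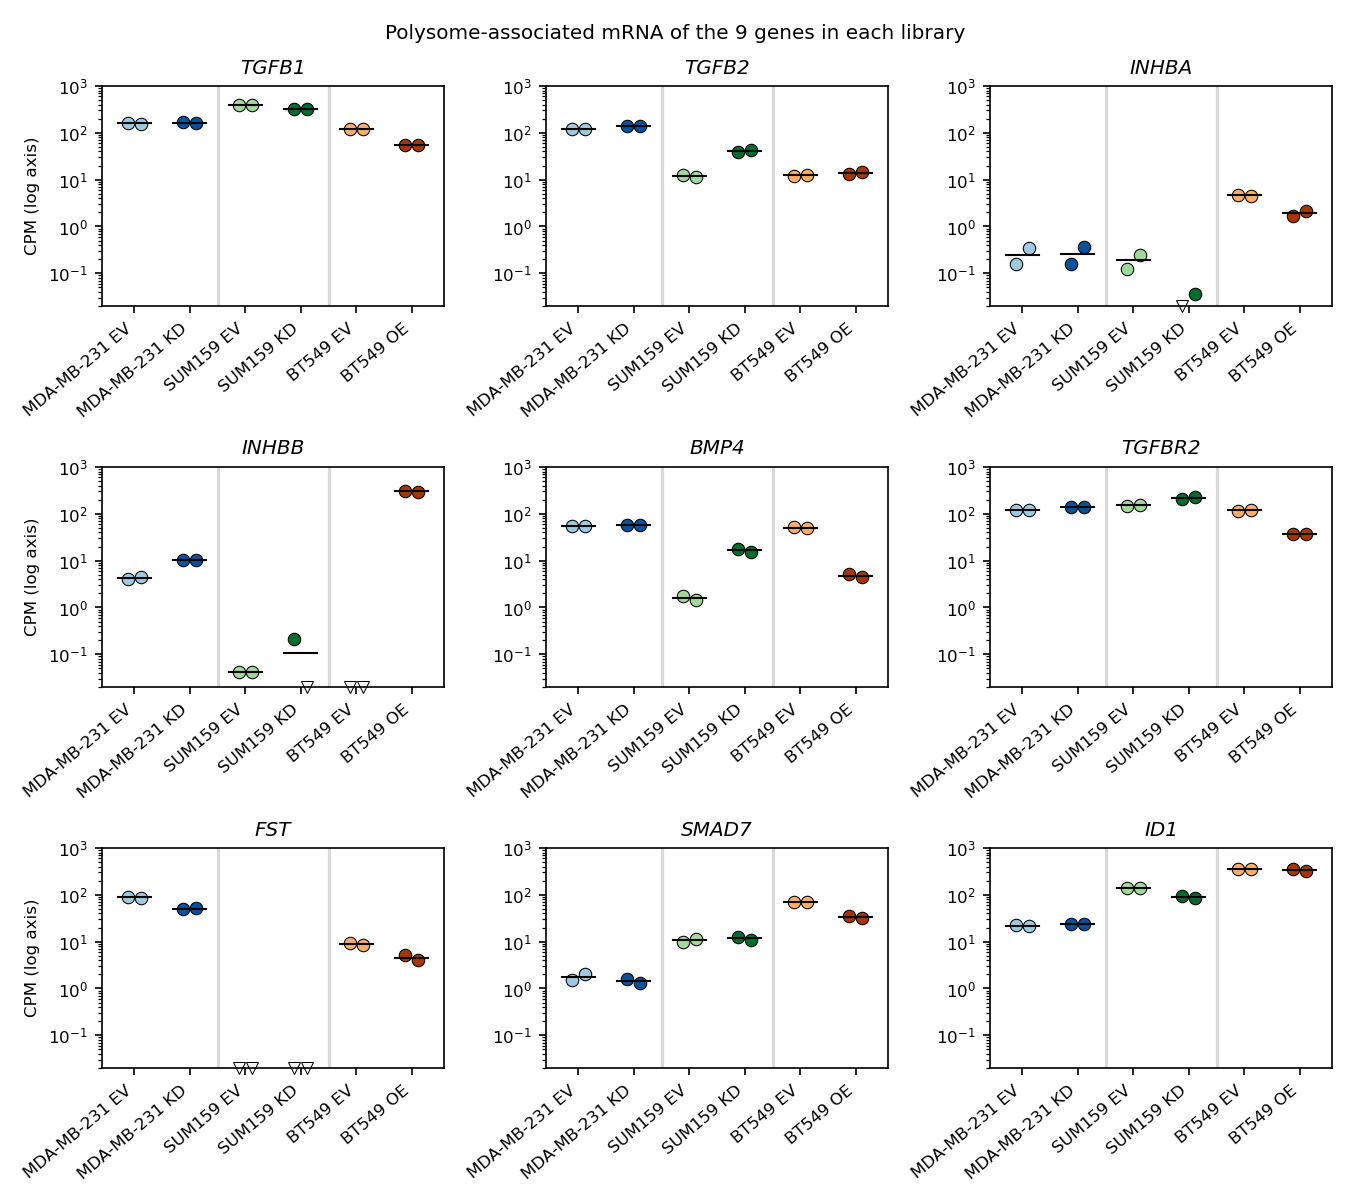
CPM (log axis) of each of the 9 genes in the 12 libraries, in 6 groups of 2; points are libraries, bars are group means and open triangles at the bottom are libraries with 0 counts. BMP4 was lowest in SUM159 EV (1.62 CPM) and FST was at 0 in all 4 SUM159 libraries.

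TGFB1 encodes the most studied TGF-beta ligand, secreted in a latent complex. MDA-MB-231 held 163 and 158 CPM of it in EV and 166 and 162 CPM in KD. The groups overlapped, and the difference was 0.03 (log2, SE 0.03, adjusted p = 0.51). In SUM159 it was at 388 and 390 CPM in EV and at 323 and 316 CPM in KD, without overlap. It fell by 0.28 on the log2 scale (SE 0.03, adjusted p = 2.6e-08). BT549 EV held 121 and 120.0 CPM and OE held 54.3 and 56.2 CPM. It fell by 1.13 on the log2 scale (SE 0.04, adjusted p = 2.6e-17), 2.18-fold. Exons of HNRNPUL1, on the opposite strand, overlap those of TGFB1, and the strand setting of the counting is not given in the sources used here.

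TGFB2 encodes a TGF-beta ligand that binds TGFBR2 poorly without the co-receptor TGFBR3. In MDA-MB-231 it was at 122 and 121 CPM in EV and at 142 and 142 CPM in KD, and rose by 0.23 (log2, SE 0.05, adjusted p = 0.00036), a call lost when the most abundant transcript was fitted alone (adjusted p = 0.26). In SUM159 it was at 12.4 and 11.6 CPM in EV and at 38.7 and 42.2 CPM in KD. Both KD libraries lay above both EV libraries, and the rise was 3.37-fold (log2 1.75, SE 0.07, adjusted p = 6.2e-16). BT549 EV held 11.9 and 12.7 CPM and OE 13.5 and 14.8 CPM, a difference of 0.20 (log2, SE 0.09) that barely passed the test (adjusted p = 0.049). That call was lost under 15 alternatives, among them DESeq2 (adjusted p = 0.086) and each line fitted alone (adjusted p = 0.14). TGFB2-AS1 overlaps exons of TGFB2 on the opposite strand, and TGFB2-OT1 overlaps them on the same strand.

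INHBA encodes the beta A subunit, whose dimer is activin A. The table lists 4 of its 5 annotated transcripts, so counts of the unlisted one, if any, are not seen in MDA-MB-231 or SUM159. Over the listed transcripts INHBA was scarce: the MDA-MB-231 libraries held 4 and 9 counts in EV and 4 and 9 in KD. SUM159 EV held 3 and 6 counts and SUM159 KD held 0 and 1, a ratio of KD to EV of 0.103 with an exact 95% counting interval of 0.0023 to 0.741. The fit called it lower in SUM159 KD (adjusted p = 0.028), and the call was lost with DESeq2 (adjusted p = 0.068) and without SUM159 EV replicate 2 (adjusted p = 0.17) or SUM159 KD replicate 1 (adjusted p = 0.14). In BT549 it was at 4.72 and 4.58 CPM in EV and at 1.71 and 2.13 CPM in OE, and fell 2.42-fold (log2 -1.27, SE 0.37, adjusted p = 0.0038), with adjusted p = 0.21 for the most abundant transcript alone. INHBA-AS1 overlaps its exons on the opposite strand.

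INHBB encodes the beta B subunit, whose dimer is activin B. In MDA-MB-231 it held 104 and 117 counts in EV, or 4.09 and 4.47 CPM, and 266 and 256 counts in KD, or 10.4 and 10.3 CPM. It rose 2.42-fold (log2 1.27, SE 0.13, adjusted p = 4.3e-08). In SUM159 it held 1 and 1 counts in EV and 5 and 0 in KD, a ratio of 2.31 with an exact 95% counting interval of 0.378 to 24.3 (adjusted p = 0.42 in the fit). In BT549 it held 0 and 0 counts in EV and 6604 and 6310 in OE, or 306 and 299 CPM. Taking 3 counts per library as the level that a count of 0 allows, it was at least 2188-fold higher in OE. It has a single annotated transcript, and no other annotated gene overlaps it. The other subunit genes of the inhibin and activin group were low in BT549 OE: INHA was at 0.14 CPM, INHBE at 0.21 CPM and INHBC at 0 in the mean.

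FST encodes follistatin, which binds activins and, less tightly, some BMPs and keeps them from their receptors. In MDA-MB-231 it was at 90.2 and 87.0 CPM in EV and at 49.1 and 51.5 CPM in KD. It fell 1.76-fold (log2 -0.82, SE 0.06, adjusted p = 2.3e-09), in the libraries in which INHBB rose. In SUM159 all 4 libraries held 0 counts, which allows at most 3 counts in each, or 0.109 to 0.127 CPM, so no fold was computed there. The table lists only transcripts with a count in BT549, and all 5 annotated FST transcripts are listed. FST in BT549 was at 9.25 and 8.57 CPM in EV and at 5.14 and 3.98 CPM in OE, and fell 1.95-fold (log2 -0.96, SE 0.13, adjusted p = 1.4e-06). Per transcript length, FST stood above INHBB in MDA-MB-231 EV (88.0 ± 0.23 against 2.75 ± 0.17 TPM, SD, n = 2) and in KD (47.3 ± 3.89 against 6.25 TPM). In BT549 OE it stood below INHBB (3.01 ± 0.47 against 147 TPM).

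BMP4 encodes a BMP ligand. It moved little in MDA-MB-231, with 53.8 and 56.2 CPM in EV and 57.0 and 57.2 CPM in KD (log2 0.05, SE 0.06, adjusted p = 0.56). In SUM159 it held 42 and 35 counts in EV and 431 and 419 in KD, or 1.77 and 1.47 against 18.2 and 15.2 CPM. It rose 10.3-fold (log2 3.35, SE 0.14, adjusted p = 1.4e-15). In BT549 it held 1124 and 1085 counts in EV and 111 and 93 in OE, or 51.5 and 50.3 against 5.14 and 4.40 CPM. It fell 10.7-fold (log2 -3.41, SE 0.10, adjusted p = 4.2e-19). The SUM159 KD level lay below the EV levels of the other two lines. A lncRNA gene on the opposite strand, ENSG00000287156, overlaps BMP4 exons.

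**Figure D3:**
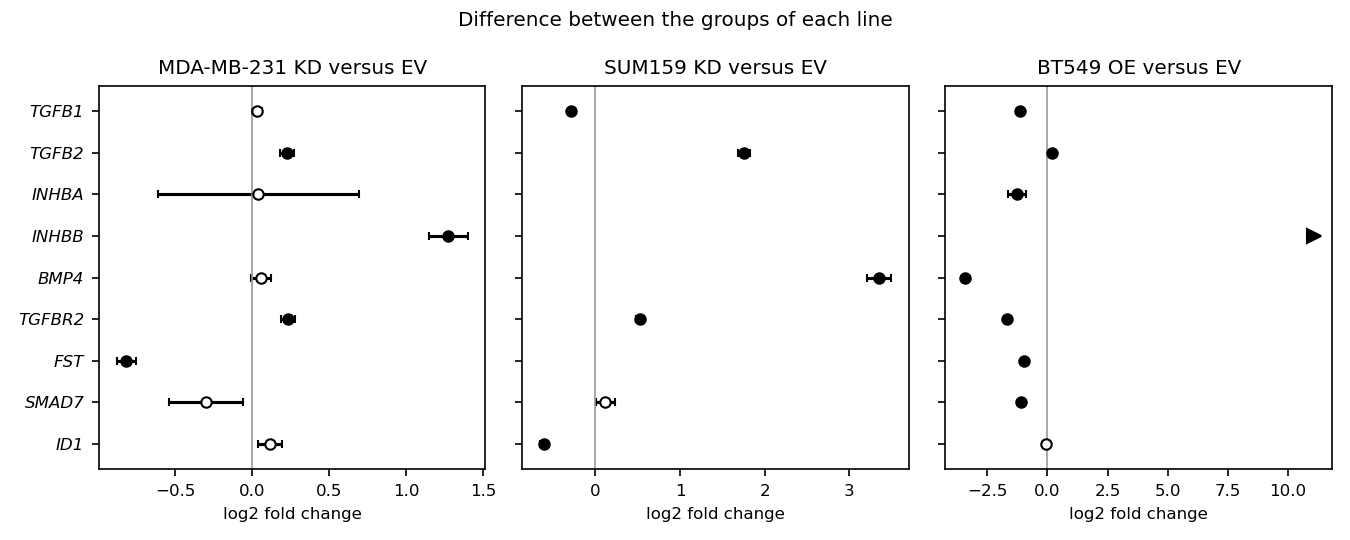
Log2 fold change of each gene (point) with its standard error (bar) in the 3 comparisons, from edgeR's quasi-likelihood fit; filled points passed an adjusted p of 0.05, and each panel has its own x axis. The triangle is the lower bound for INHBB in BT549 OE, and genes with at most 3 counts in each library of a group are otherwise left out (INHBA, INHBB and FST in SUM159).

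The 9 annotated BMP4 transcripts all have rows and start at several places. BMP4-201 starts at 53956825 and BMP4-206 at 53956811 (the distal start), BMP4-202 at 53954552 (the middle start), and BMP4-205 at 53953455 and BMP4-207 at 53953429 (the proximal start). The 4 others start elsewhere and held at most 9.32% of BMP4 counts in any library. Expected counts divide reads that several transcripts share, so these shares are estimates. Transcripts from the distal start held 87.2% of BMP4 counts in MDA-MB-231 EV, 88.5% in MDA-MB-231 KD and 92.7% in BT549 EV. In SUM159 they held 0.023% in EV and 4.45% in KD, and transcripts from the proximal start held 65.8% and 78.5%. The SUM159 EV libraries, with few BMP4 counts, did not agree on the rest: the proximal share was 45.1% in one and 90.6% in the other, and the middle start held 20 counts and 0. In BT549 OE the distal start held 50.1% and the proximal start 39.1%. The distal share was low in all 4 SUM159 libraries, at most 0.051% in EV and at 3.07% and 5.87% in KD.

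In counts, the proximal transcripts held 19 and 32 in SUM159 EV and 359 and 308 in KD, while the distal ones held 0 and 0 and then 13 and 25. In BT549 the distal transcripts went from 1042 and 1005 in EV to 58 and 44 in OE, while the proximal ones held 34 and 54 in EV and 42 and 38 in OE. Fitted over 64066 single transcripts, 13.2% of which were called in SUM159 KD, BMP4-205 rose (log2 3.70, SE 1.02, adjusted p = 0.039), as did BMP4-201, from 0 and 0 to 11 and 13 counts (adjusted p = 9.0e-05). In BT549 OE, where 22.1% of transcripts were called, BMP4-201 fell by 3.91 (log2, SE 0.15, adjusted p = 1.2e-07) and BMP4-206 by 5.16 (SE 0.71, adjusted p = 0.00063). The proximal BMP4-205 differed by 0.52 (log2, SE 0.96, adjusted p = 0.78), while the proximal BMP4-207 was called lower, from 12.6 and 17.8 expected counts in EV to under 1 in both OE libraries (adjusted p = 0.023). In MDA-MB-231 KD, where 3.70% of transcripts were called, none of the 5 BMP4 transcripts tested was called (adjusted p from 0.77 to 1, and 0 with an unadjusted p under 0.05). Whether the starts differed in their response was not tested.

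**Figure D4:**
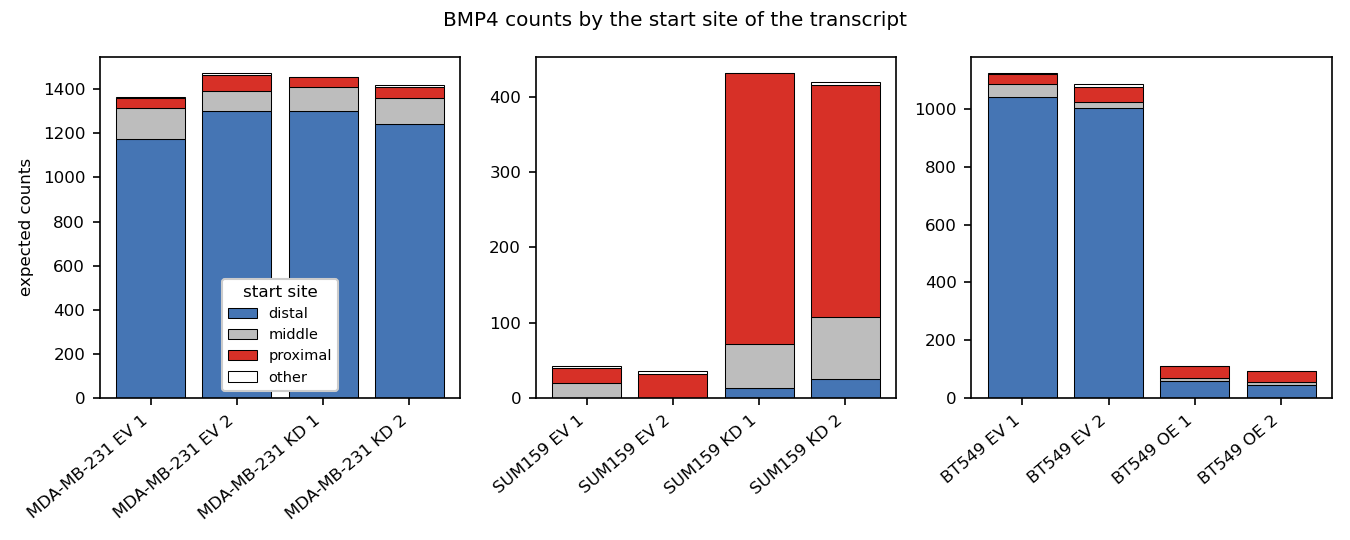
Expected counts of BMP4 in each of the 12 libraries, stacked by the start site of the transcript (distal, middle, proximal, other); each line has its own y axis. Distal transcripts hold most counts in MDA-MB-231 and BT549 EV, proximal ones in SUM159 KD (359 and 308 counts).

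TGFBR2 encodes the type II receptor that binds TGF-beta. In MDA-MB-231 it was at 121 and 118 CPM in EV and at 139 and 142 CPM in KD, and rose by 0.23 (log2, SE 0.04, adjusted p = 0.00012), with adjusted p = 0.69 for the most abundant transcript alone. In SUM159 it was at 148 and 154 CPM in EV and at 207 and 227 CPM in KD, and rose 1.44-fold (log2 0.53, SE 0.04, adjusted p = 7.6e-11). BT549 EV held 118 and 119 CPM and OE held 37.4 and 36.6 CPM, and TGFBR2 fell 3.19-fold (log2 -1.67, SE 0.05, adjusted p = 1.6e-18). TGFBR1, the type I partner of TGFBR2, rose in SUM159 KD from 41.4 to 96.9 CPM (log2 1.22), fell in BT549 OE from 63.3 to 40.8 CPM (log2 -0.63) and was at 28.6 and 27.4 CPM in MDA-MB-231 EV and KD, where it was not called.

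A second TGFBR2 transcript, TGFBR2-202, carries an extra coding exon of 75 bases (chr3:30623199-30623273, plus strand, GRCh38), which adds 25 codons to the 567 of TGFBR2-201. The exon is shown in capitals because its share differed between lines.
TGFBR2-202 exon: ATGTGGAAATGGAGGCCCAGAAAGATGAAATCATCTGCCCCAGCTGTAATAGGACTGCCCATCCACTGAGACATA
In MDA-MB-231, TGFBR2-202 held 7.05% and 11.5% of TGFBR2 counts in EV and 10.0% and 13.0% in KD. It held 34.6% and 33.0% in SUM159 EV and 30.0% and 29.6% in KD. In BT549 it held 24.5% and 30.8% in EV, while the OE libraries stood apart from each other at 46.6% and 16.2%. In BT549 OE both transcripts fell, TGFBR2-201 by 1.74 (log2, SE 0.16, adjusted p = 1.7e-05) and TGFBR2-202 by 1.48 (SE 0.39, adjusted p = 0.020).

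SMAD7 encodes an inhibitory SMAD that blocks the type I receptor and is itself induced by TGF-beta and BMP signalling. It was low in MDA-MB-231, at 1.49 and 2.02 CPM in EV and 1.57 and 1.29 CPM in KD (log2 -0.30, SE 0.24, adjusted p = 0.36). In SUM159 it was at 9.88 and 11.6 CPM in EV and at 12.4 and 11.1 CPM in KD, and the groups overlapped (log2 0.12, SE 0.11, adjusted p = 0.36). In BT549 it was at 69.5 and 70.8 CPM in EV and at 34.7 and 31.3 CPM in OE, and fell 2.13-fold (log2 -1.09, SE 0.08, adjusted p = 1.2e-11).

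ID1 encodes an inhibitor of basic helix-loop-helix factors and is a direct target of BMP signalling through SMAD1 and SMAD5. In MDA-MB-231 it was at 22.5 and 21.7 CPM in EV and at 23.6 and 24.2 CPM in KD (log2 0.11, SE 0.08, adjusted p = 0.28). In SUM159 it was at 139 and 138 CPM in EV and at 96.5 and 86.4 CPM in KD, and fell 1.52-fold (log2 -0.60, SE 0.05, adjusted p = 2.5e-10), in the libraries in which BMP4 rose. In BT549 it was at 359 and 350.0 CPM in EV and at 353 and 319 CPM in OE, where BMP4 fell 10.7-fold. The ID1 groups overlapped there (log2 -0.08, SE 0.04, adjusted p = 0.11). Without BT549 OE replicate 1 the difference was -0.16 and passed the test (adjusted p = 0.0058), and with each line fitted alone it was -0.09 (adjusted p = 0.044).

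ID2, ID3 and ID4 encode related inhibitors. ID3 was at 254 CPM in SUM159 EV and 192 CPM in KD and fell by 0.41 on the log2 scale. ID2 fell further, from 6.38 to 1.10 CPM (log2 -2.54). In BT549 OE, ID2 fell from 128 to 60.1 CPM (log2 -1.09) and ID4 from 258 to 51.0 CPM (log2 -2.34), while ID3 was at 838 and 770 CPM (log2 -0.12, which passed the test). SMAD1, which carries the BMP signal, fell in SUM159 KD from 33.2 to 13.9 CPM (log2 -1.26) and rose in BT549 OE from 45.3 to 76.7 CPM (log2 0.76).

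The effect of the knockdown differed between the 2 lines that received it for 5 of the 9 members, against 50.9% of all genes. The difference, MDA-MB-231 minus SUM159 on the log2 scale, was -3.30 for BMP4 (SE 0.16, adjusted p = 4.8e-14) and -1.53 for TGFB2 (SE 0.09, adjusted p = 5.4e-13). It was 0.72 for ID1 (SE 0.09, adjusted p = 6.5e-07), 0.32 for TGFB1 (SE 0.05, adjusted p = 3.2e-06) and -0.29 for TGFBR2 (SE 0.06, adjusted p = 0.00019). The TGFBR2 call was lost when the most abundant transcript was fitted alone (-0.41, adjusted p = 0.32). TGFB2 and TGFBR2 rose in both lines and rose more in SUM159. SMAD7 was not called (difference -0.42, SE 0.26, adjusted p = 0.20). For INHBA, INHBB and FST no difference could be read, since SUM159 held at most 6 counts of each in any library.

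Between the EV groups most genes differed, and so did most members. SUM159 EV differed from MDA-MB-231 EV in 8 of 9 members (75.7% of all genes called), BT549 EV from MDA-MB-231 EV in 7 (79.5%) and BT549 EV from SUM159 EV in 7 (78.4%). These comparisons are also between media, and those with BT549 EV are, per the study's methods, also between control vectors. Neither can be told apart from the lines. SMAD7 was ordered from BT549 (70.2 ± 0.92 CPM, SD, n = 2) through SUM159 (10.7 ± 1.22 CPM) to MDA-MB-231 (1.76 ± 0.37 CPM), and ID1 in the same order (355 ± 6.50, 139 ± 0.71 and 22.1 ± 0.60 CPM). TGFB2 had another order: it was 10.1-fold lower in SUM159 EV than in MDA-MB-231 EV, and BT549 EV and SUM159 EV overlapped (log2 0.03, SE 0.09, adjusted p = 0.74). BMP4 was 33.9-fold lower in SUM159 EV than in MDA-MB-231 EV, while BT549 EV and MDA-MB-231 EV differed by -0.11 (log2, SE 0.07, adjusted p = 0.12). Over genes with a mean of 50 counts or more that difference was -0.15 and passed the test (adjusted p = 0.031), and with library sizes alone it was -0.43. TGFBR2 overlapped between BT549 EV and MDA-MB-231 EV (log2 -0.02, SE 0.04, adjusted p = 0.74), and with library sizes alone the difference was -0.33 (adjusted p = 2.8e-07). FST was 9.94-fold lower in BT549 EV, and at least 701-fold lower in SUM159 EV, than in MDA-MB-231 EV. Over the 4 listed of its 5 annotated transcripts, INHBA was 18.6-fold higher in BT549 EV than in MDA-MB-231 EV (SE 0.47 on the log2 scale, adjusted p = 2.3e-08).

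Of 107 other genes of these pathways, sorted by role into 9 lists, 95 have rows and 87 were tested. In MDA-MB-231 KD, 23 rose and 17 fell, with a median log2 fold change of 0, as over all genes. In SUM159 KD, 26 rose and 30 fell, with a median of -0.04, or 0 once genes held at 3 counts or fewer throughout a group take the bound those counts allow. In BT549 OE, 40 rose and 35 fell, with a median of 0.12, or 0.01 with such bounds, beside 0.02 over all genes. Of all genes tested, 21.2% were called higher and 16.5% lower in MDA-MB-231 KD, and 28.6% and 31.4% in SUM159 KD. In BT549 OE these shares were 35.6% and 35.0%.

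Among the other ligands, INHBE, an activin subunit made mostly in liver, fell in both knockdowns: from 2.87 to 0.53 CPM in MDA-MB-231 (log2 -2.41, SE 0.27, adjusted p = 2.2e-07) and from 41.5 to 1.70 CPM in SUM159 (log2 -4.62, SE 0.15, adjusted p = 1.8e-17). BMP2 fell in MDA-MB-231 KD from 4.89 to 1.04 CPM (log2 -2.24) and in SUM159 KD (log2 -0.998), and rose in BT549 OE (log2 0.96). GDF15, a stress-induced cytokine, fell in SUM159 KD from 29.7 to 4.58 CPM (log2 -2.70) and in MDA-MB-231 KD (log2 -0.82). Of the 12 other BMP and GDF ligands tested, 0 rose and 3 fell in MDA-MB-231 KD, 3 rose and 3 fell in SUM159 KD, and 6 rose and 3 fell in BT549 OE. The shares of all genes called higher and lower, in the same order, were 21.2% and 16.5%, 28.6% and 31.4%, and 35.6% and 35.0%. In BT549 OE, GDF5 rose from 0.90 to 13.7 CPM (log2 3.93) and GDF15 fell from 128 to 70.8 CPM (log2 -0.86).

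Among 13 other receptors and co-receptors tested, ENG, the endoglin co-receptor, rose in MDA-MB-231 KD from 28.2 to 51.1 CPM (log2 0.86) and in BT549 OE from 11.1 to 31.7 CPM (log2 1.51). ACVR2B, an activin type II receptor, fell in BT549 OE from 3.87 to 1.08 CPM (log2 -1.84), and BMPR1B fell in SUM159 KD from 4.66 to 1.49 CPM (log2 -1.65). Of the receptors, 3 rose and 7 fell in BT549 OE, 4 rose and 5 fell in SUM159 KD, and 3 rose and 4 fell in MDA-MB-231 KD. The shares of all genes called higher and lower, in the same order, were 35.6% and 35.0%, 28.6% and 31.4%, and 21.2% and 16.5%. Of 7 other SMAD genes, SMAD6, the inhibitory SMAD of the BMP branch, rose in all 3 comparisons. It went from 11.9 to 16.4 CPM in MDA-MB-231 KD (log2 0.46) and from 10.7 to 22.4 CPM in SUM159 KD (log2 1.06). In BT549 OE it rose by 0.74 on the log2 scale (adjusted p = 1.8e-09).

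Of 10 tested genes of latency and activation, which hold TGF-beta in the matrix or release it, 8 rose and 2 fell in BT549 OE. Of all genes tested in BT549 OE, 35.6% were called higher and 35.0% lower. ITGB8, a subunit of an integrin that activates latent TGF-beta, rose from 0.67 to 56.5 CPM (log2 6.39, SE 0.17, adjusted p = 5.0e-20), and NRROS, which holds latent TGF-beta on cells, fell from 40.4 to 1.06 CPM (log2 -5.25, SE 0.17, adjusted p = 8.1e-18). In SUM159 KD, THBS1, which encodes the matrix protein thrombospondin 1, rose from 72.0 to 235 CPM (log2 1.71, SE 0.05, adjusted p = 4.2e-19). THBS1 also rose in BT549 OE (log2 1.89) and in MDA-MB-231 KD (log2 0.21). LTBP3, which tethers latent TGF-beta, rose in MDA-MB-231 KD (log2 0.29) and fell in SUM159 KD (log2 -0.54).

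Of 9 other extracellular antagonists tested, 7 rose and 2 fell in BT549 OE, where FST fell. These counts stand beside 35.6% of all genes called higher and 35.0% lower in BT549 OE. CHRDL2, among the 7, exceeded 3 counts only in BT549 OE. It passed the filter on low counts through that group, so it could only be called higher there. CHRDL1, a BMP antagonist, rose from 38.1 to 312 CPM (log2 3.03), a gene named here after its values were seen. FSTL3, the follistatin-like binder of activin, rose in SUM159 KD from 302 to 582 CPM (log2 0.95, SE 0.03, adjusted p = 6.7e-18) and fell in MDA-MB-231 KD from 51.0 to 41.9 CPM (log2 -0.28). BMPER, an extracellular regulator of BMPs, rose in MDA-MB-231 KD from 1.36 to 3.93 CPM (log2 1.53). Of 11 other intracellular and membrane inhibitors, BAMBI, a decoy receptor, fell in SUM159 KD from 4.23 to 0.99 CPM (log2 -2.11). PMEPA1 rose in BT549 OE from 34.3 to 128 CPM (log2 1.90), in SUM159 KD (log2 0.56) and in MDA-MB-231 KD (log2 0.41).

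Of 12 other TGF-beta and activin target genes, 6 rose and 5 fell in BT549 OE, 6 rose and 3 fell in SUM159 KD, and 4 rose and 4 fell in MDA-MB-231 KD. The shares of all genes called higher and lower, in the same order, were 35.6% and 35.0%, 28.6% and 31.4%, and 21.2% and 16.5%. TGFBI, a matrix protein induced by TGF-beta, rose in MDA-MB-231 KD from 12.04 to 29.8 CPM (log2 1.31, SE 0.07, adjusted p = 9.5e-13). It also rose in BT549 OE (log2 3.56, adjusted p = 2.3e-24) and, by 0.07, in SUM159 KD (adjusted p = 0.046). JUNB fell in SUM159 KD from 93.5 to 32.8 CPM (log2 -1.51), in MDA-MB-231 KD (log2 -0.31) and in BT549 OE (log2 -0.64). In BT549 OE, ITGA11, a collagen-binding integrin subunit, went from 0 to 75.6 CPM, while CDKN1A, a cell cycle inhibitor, fell from 173 to 54.3 CPM (log2 -1.67). Of 9 other BMP target genes, 2 rose and 7 fell in BT549 OE, with a median log2 fold change of -1.65. ID2, ID3, ID4 and HEY1 were among those that fell. DLX5, 1 of the 2 that rose, exceeded 3 counts only in BT549 OE, so it could only be called higher there. In SUM159 KD, 1 rose and 5 fell, with a median of -0.41. In MDA-MB-231 KD, 2 rose and 0 fell, with a median of 0.13, or 0 with bounds for genes at the floor of 3 counts. HEY1, a transcriptional repressor, fell in BT549 OE from 22.2 to 0.87 CPM (log2 -4.67, SE 0.19, adjusted p = 1.8e-16).

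**Figure D5:**
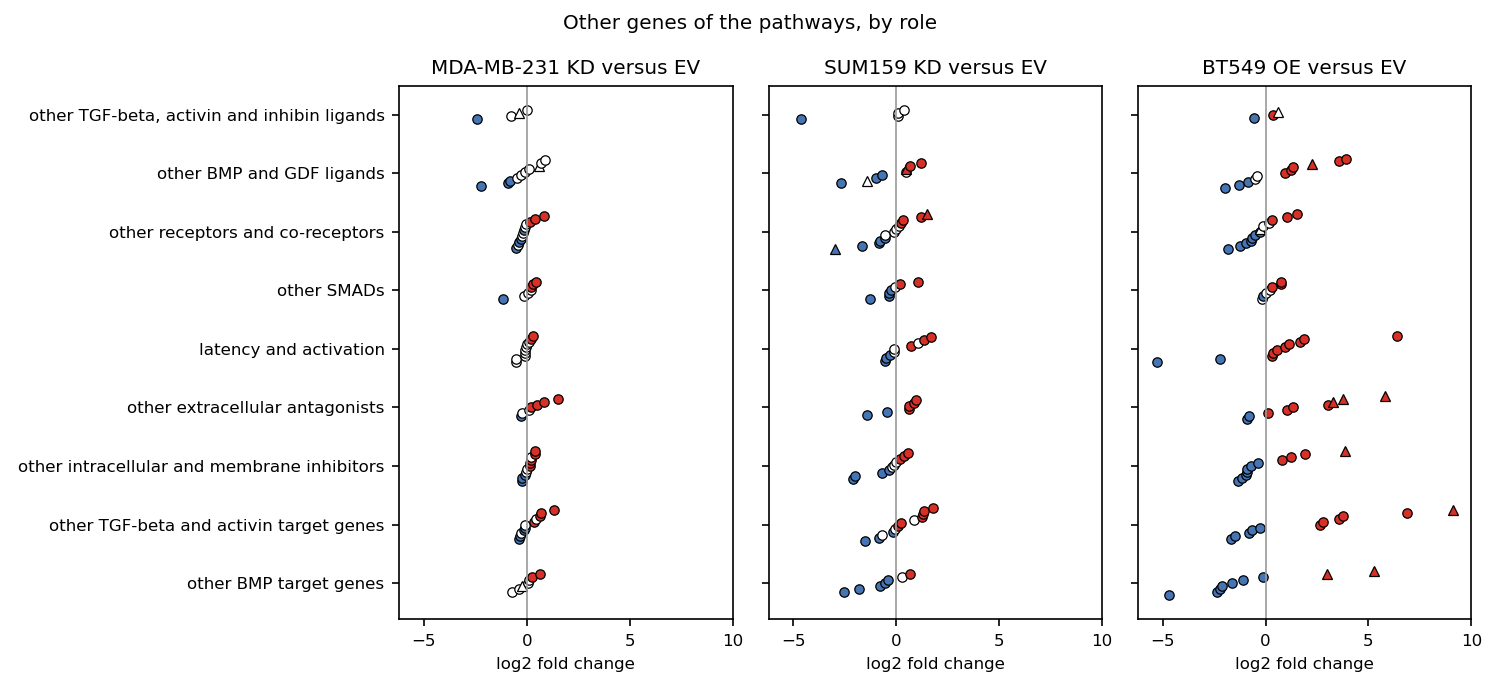
Log2 fold change of the other pathway genes tested, by list, in the 3 comparisons; red points rose and blue points fell at an adjusted p of 0.05, open points did not pass, and triangles are bounds where one group had at most 3 counts in each library. Genes with at most 3 counts in each library of both groups are left out; the widest spread is in BT549 OE.

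The genes whose log2 CPM followed each member most closely over the 12 libraries were found among 12589 genes (mean count 50 or more), as a description over points that share cell lines. For ID1 the nearest was ID3 (Pearson r = 0.998), followed by SYT14 and IKBKB. For TGFB2 it was PARVA (r = 0.995), for TGFBR2 it was TFE3 (r = 0.997), for TGFB1 S100A3 (r = 0.992), for BMP4 DNAJB5 (r = 0.988), for INHBB VWA1 (r = 0.993), for FST LBX2 (r = 0.994) and for SMAD7 KLHL9 (r = 0.993). INHBA, with a mean of 26.7 counts, was left out.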

How the data were processed

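Polysome-associated RNA of 12 libraries was analysed. Per the study's methods and labels, the authors used Trimmomatic for trimming, HISAT2 for alignment (GRCh38) and SAMtools to drop duplicates. Library kits are described in 2 ways, as stranded total RNA after rRNA depletion (methods) and as oligo(dT) selection (labels). The counting tool, annotation and strand setting are not given in the sources used here. The table deposited by the authors holds unnormalized expected counts per Ensembl transcript in all 12 columns. In the 8 MDA-MB-231 and SUM159 columns 5.08% of cells hold a mark in place of a number. Marks were taken as 0, and no transcript of the 9 genes carried one. A transcript at 0 in all 4 BT549 libraries has no row.

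Transcripts were matched to GENCODE 44 (79.6% of them, holding 99.2% to 99.4% of counts), summed per symbol and rounded. edgeR 4.0.16 (TMM, filterByExpr, glmQLFit, 6 group means) tested 16538 genes, with Benjamini-Hochberg adjustment. The standard error is the absolute log2 fold change over the square root of F. Levels are CPM or TPM. A count of 0 was taken to allow 3 counts, and intervals cover counting error only. DESeq2 1.42.0, other scalings and filters, single lines, a replicate block, single transcripts and each library left out were alternatives.

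The 9 genes, the pathway and marker lists and the tests were chosen with earlier results of these data known. Named pathway genes were, per list, comparison and direction, the called gene with the largest change, a mean of at least 50 counts and groups without overlap; the text gives some of them. TGFBR1, INHA, INHBC, INHBE in BT549, ID2 in BT549, ID3, ID4 and CHRDL1 fall outside that rule and were named after their values were seen. So do CHRDL2, DLX5 and the further comparisons given for BMP2, GDF15, TGFBI, JUNB, SMAD6, THBS1 and PMEPA1.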

Additional observations from a re-analysis of the deposited data

Results flagged for a closer look

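For 5 members the effect of the TRMT112 knockdown differed between MDA-MB-231 and SUM159 by the interaction test of the edgeR fit. The difference, MDA-MB-231 minus SUM159 on the log2 scale, was -3.30 for BMP4, which was near 0 in MDA-MB-231 and rose in SUM159. It was -1.53 for TGFB2 and -0.29 for TGFBR2, which rose in both lines and rose more in SUM159. It was 0.72 for ID1 and 0.32 for TGFB1, which fell in SUM159 and were not called in MDA-MB-231. For TGFBR2 the call was lost when the most abundant transcript was fitted alone (adjusted p = 0.32). TRMT112 itself fell by 1.23 in MDA-MB-231 and by 0.76 in SUM159 on the log2 scale, and the part of that difference in these results was not tested.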

How the results depend on the processing

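Over all alternatives run, the number of members called stayed at 4 in MDA-MB-231 KD, between 5 and 6 in SUM159 KD and between 7 and 9 in BT549 OE. For the other pathway genes the ranges were 28 to 43, 50 to 57 and 67 to 76. Of the single values, 15 changed sign, none of which was called both with and without the change. With library sizes alone, TGFB1 (-0.058), INHBA (-0.050) and BMP4 (-0.035) in MDA-MB-231 KD and TGFB2 (-0.18) in BT549 EV against SUM159 EV turned. That scaling called 2363 genes higher and 4082 lower in MDA-MB-231 KD, where TMM called 3505 and 2735, and moved the median of all genes to -0.34 in BT549 EV against MDA-MB-231 EV and to -0.27 against SUM159 EV. The most abundant transcript alone gave -1.65 for INHBA and 1.07 for SMAD7 in MDA-MB-231 KD, -0.17 for TGFBR2 in SUM159 EV against MDA-MB-231 EV and 0.54 for SMAD7 in the difference between the knockdowns. Leaving out 1 library at a time gave -0.66 to 0.70 for INHBA in MDA-MB-231 KD, -3.18 to 2.19 for INHBB in SUM159 KD, -0.96 to 0.26 for INHBA in SUM159 EV against MDA-MB-231 EV, and -0.015 to 0.087 for TGFB2 in BT549 EV against SUM159 EV. The cause was not tested. Same-numbered libraries did not deviate together (correlations 0.0029, -0.030 and 0.016). That does not show whether they were prepared as pairs. With a replicate block within each line the members called were 4, 6 and 8 in the 3 comparisons, and the pathway genes 41, 56 and 75. In BT549 OE that block lost TGFB2 (adjusted p = 0.062) and added ID1 (adjusted p = 0.039). Over its listed transcripts, INHBA held under 10 counts in every MDA-MB-231 and SUM159 library, which limits what can be read of that gene there.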

Other observations

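SMAD7 counts in MDA-MB-231 and SUM159 were divided differently between 2 transcripts in KD and EV. SMAD7-202, annotated with a retained intron, held 68.9% and 41.7% of the few SMAD7 counts in EV and 0.53% and 23.0% in KD of MDA-MB-231. For SUM159 these shares were 39.4% and 34.1% in EV and 15.2% and 18.3% in KD. The protein-coding SMAD7-201 held 142 and 164 expected counts in SUM159 EV and 237 and 244 in KD. In the fit over single transcripts neither passed the test in SUM159 KD (adjusted p = 0.26 for SMAD7-202 and 0.18 for SMAD7-201) or in MDA-MB-231 KD (adjusted p = 0.075 and 0.12). In BT549 SMAD7-202 held 28.5% and 26.0% in EV and 23.7% and 35.3% in OE.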
